A study of Rattus norvegicus with 6 samples.

Results

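DNA replication and mitosis genes are the 47 genes examined here, out of 16876 gene symbols counted in rat (Rattus norvegicus) cultures. The list was given as 48 names, of which Geminin and Gmnn are the same gene. All 47 were in the count table and all 47 passed the filter on low counts, beside 11679 genes tested in all. The cultures, labelled as primary microglia, had been kept for 24 h with PSNPs (polystyrene nanoplastics, 3 libraries) or IR-813 (3 libraries, a dye of the near infrared, named con in the columns of the deposited tables). Microglia, the resident macrophages of the brain, had been shaken off confluent co-cultures grown in serum, and the labels used here give no genotype, strain, age or dose. The titles of the con libraries give IR-813, and it is unclear from the labels whether con could mean another control. Higher or lower below means with PSNPs relative to these libraries, called IR-813 after their titles. Whether replicates are separate cultures or animals is not stated, so that p-values measure the spread of these libraries alone, which may be technical.

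A dividing cell passes through growth (G1), DNA synthesis (S), a second gap (G2) and mitosis (M). D-type cyclins with CDK4 or CDK6 and E-type cyclins with CDK2 release E2F factors from the retinoblastoma protein, and E2F factors switch on the genes of replication. Later, cyclins A and B with CDK1, and the factors of the MuvB complex with B-MYB and FOXM1, bring on the genes of mitosis. Microglia, astrocytes and oligodendrocyte progenitors can all divide in culture.

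With PSNPs, a minority of the 47 genes examined changed, all by less than 2-fold. In the quasi-likelihood test of edgeR, with p-values adjusted over all genes by Benjamini and Hochberg, 9 of the 47 members were higher, 2 were lower and 36 did not pass. The 11 called members were 23.4% of the list, where 41.0% of all tested genes were called (20.9% higher and 20.1% lower). None of the 47 changed by more than 2-fold in either direction, and the largest change of a called member was 1.61-fold, whereas 13.5% of all tested genes were called with more than a 2-fold change. The median log2 fold change of the members was 0.10, beside −0.012 over all tested genes. The PSNPs and IR-813 libraries did not overlap for 23 members (48.9%), 15 of them above and 8 below, where 61.4% of all tested genes did not overlap (30.0% above and 31.4% below). The 9 that rose were the G1 cyclin gene Ccnd1, the ribonucleotide reductase gene Rrm2 and 7 genes of G2 and mitosis (Ccnb1, Ccnb2, Cdk1, Plk1, Kif20a, Dlgap5 and Tpx2). The 2 that fell were Cdk2, the kinase of the G1/S transition, and Cdt1, which loads the replicative helicase.

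**Figure D1:**
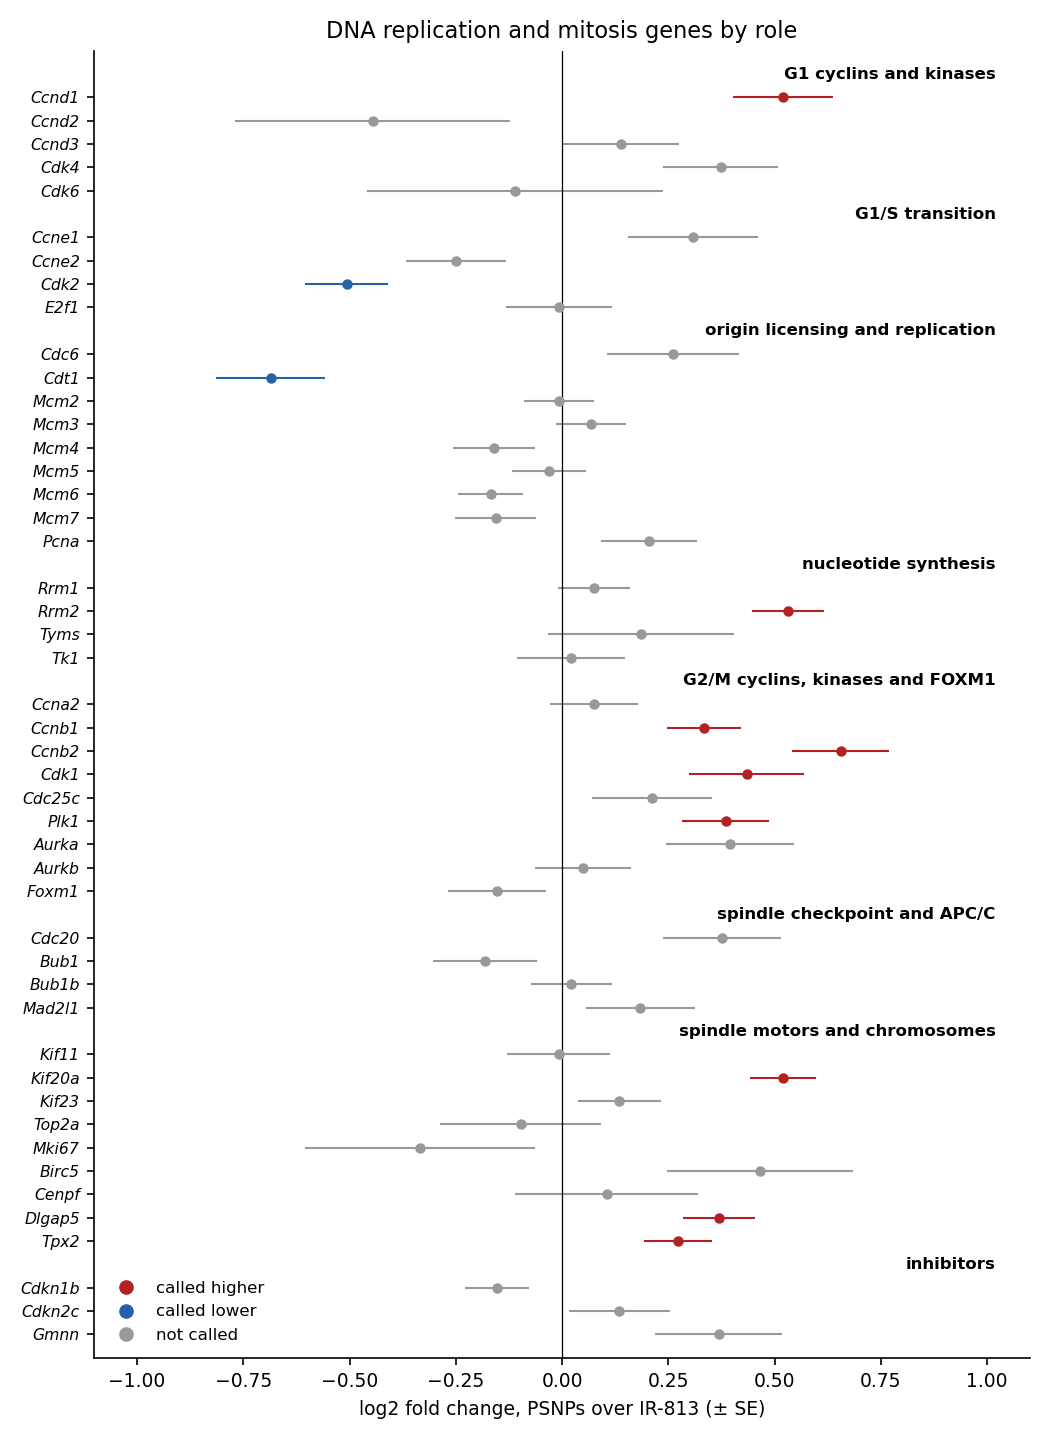
The log2 fold change of PSNPs over IR-813 (horizontal axis, with its standard error as a bar) is plotted for each of the 47 members, arranged by role. Red points are called higher, blue points called lower and grey points did not pass. All points lie within 1 log2 unit of 0, and 4 of the 9 red points lie in the G2/M group.

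Library totals ranged from 19166605 to 22553507 counts, and the lowest count of any member in any library was 113, for Cdc25c. PSNPs replicate 3 stood apart: its score on the second principal component, with 15.6% of the variance, was 35.4, against −22.9 and −24.3 in PSNPs replicates 1 and 2 and between 2.80 and 4.62 in the IR-813 libraries. Among the members PSNPs replicate 3 had the lowest value of all 6 libraries for 14 genes and the highest for 19. The same was not counted over all tested genes, so these counts have no background. Without PSNPs replicate 3, 15 members were higher and 4 lower (40.4% of the list, beside 59.9% of all genes tested then). Leaving out IR-813 replicate 1 gave 4 higher and 2 lower members (12.8%, beside 25.4% of all genes tested then), and leaving out IR-813 replicate 2 gave 3 and 2 (10.6%, beside 23.9%), so the share called was lower for all genes as well. Scaling by library size alone left 5 higher and 3 lower (17.0%, beside 41.1% of all genes).

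Cell type markers also differed between the groups. Their counts below stand beside 20.9% of all tested genes called higher and 20.1% called lower. Bulk libraries cannot tell fewer cells of a type from less RNA per cell. Of 8 microglia markers 6 were lower and 0 higher, with a summed level of 469 to 599 CPM (counts scaled to library size, with TMM factors) with PSNPs and 732 to 956 CPM with IR-813. Of 7 oligodendrocyte progenitor markers 5 were lower and 0 higher (1842 to 3443 CPM with PSNPs, 3331 to 3593 CPM with IR-813), and of 8 markers of oligodendrocytes 8 were lower (3136 to 3632 CPM with PSNPs, 5817 to 6765 CPM with IR-813). Of 8 neuron markers 6 were lower (169 to 208 CPM with PSNPs, 510 to 532 CPM with IR-813). Of 8 astrocyte markers 4 were higher and 0 lower (7412 to 8271 CPM with PSNPs, 6278 to 8006 CPM with IR-813), and in every library their sum lay above those of the other types. In every library microglia markers thus summed to less than those of astrocytes, oligodendrocyte progenitors or oligodendrocytes, although the cultures are labelled as microglia. Most of the progenitor sum came from a single gene, Ptprz1, which did not pass. It stood at 2624, 2806.5 and 1386 CPM with PSNPs and at 2313, 2371 and 2404 CPM with IR-813. In PSNPs replicates 1 and 3 the order of progenitor and microglia sums rested on this gene. Of the 8 fibroblast and vascular markers (44.5 to 56.4 CPM with PSNPs, 69.7 to 101 CPM with IR-813) 2 of 3 tested were lower, Col1a2 was at 0 in every library, and Dcn, Lum, Cldn5 and Rgs5 were too low to be tested. The part of these cell types in the values of the members was not tested.

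Among the genes of G1, Ccnd1 encodes cyclin D1, which couples growth signals to CDK4 and CDK6. It stood at 1739, 1802 and 1505 CPM in the PSNPs libraries and at 1266, 1207 and 1048 CPM in the IR-813 libraries. The groups did not overlap, and the fold change was 1.43 (log2 0.52 ± 0.12, estimate ± SE, edgeR adjusted p = 0.0124). Without IR-813 replicate 2 the estimate was 0.54 with an edgeR adjusted p of 0.0529, and the 14 alternatives tried (given in the closing section) spanned 0.000362 to 0.0529. Its partner kinase gene Cdk4 stood at 277, 285 and 385 CPM with PSNPs and at 239.9, 240.7 and 251 CPM with IR-813, groups that did not overlap, but did not pass (0.37 ± 0.14, edgeR adjusted p = 0.0633). PSNPs replicate 3 was far above the other PSNPs libraries for Cdk4, and without it the estimate was 0.21 with an edgeR adjusted p of 0.00582, alternatives spanning 0.00582 to 0.172.

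The other D-type cyclin genes did not pass. Ccnd2 stood at 78.4, 84.1 and 32.2 CPM with PSNPs and at 92.9, 88.2 and 84.1 CPM with IR-813, so only PSNPs replicate 3 lay far from the rest. The second CDK partner of the D-type cyclins, Cdk6, showed the same low library, with 27.5, 24.8 and 10.0 CPM with PSNPs against 26.1, 21.8 and 19.5 CPM with IR-813. Ccnd3 averaged 54.4 ± 6.90 CPM with PSNPs and 49.5 ± 6.45 CPM with IR-813 (SD, n = 3 each), within the spread of the libraries. On the deposited log2 values, whose scaling the sources used here do not give but which behave as levels per transcript length, Ccnd1 was the highest of the 47 members in both groups (8.67 to 8.89 with PSNPs, 8.11 to 8.39 with IR-813). Cdk4 came next (7.80 to 8.34 with PSNPs, 7.61 to 7.67 with IR-813), and the mitotic phosphatase gene Cdc25c was the lowest (1.99 to 2.24 with PSNPs, 1.87 to 2.03 with IR-813).

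At the G1/S transition the kinase gene Cdk2 fell. It stood at 18.4, 18.9 and 19.4 CPM in the PSNPs libraries and at 25.1, 26.8 and 28.7 CPM in the IR-813 libraries. The groups were well apart and the PSNPs libraries lay close together (log2 fold change −0.51 ± 0.10, edgeR adjusted p = 0.00677). The cyclin E genes, which activate CDK2, did not pass: Ccne1 averaged 12.1 ± 2.12 CPM with PSNPs and 9.75 ± 0.408 CPM with IR-813, and Ccne2 averaged 15.0 ± 1.00 CPM with PSNPs and 17.8 ± 1.61 CPM with IR-813 (SD, n = 3 each). E2f1, an E2F factor that activates replication genes, was at 17.5 ± 1.69 CPM with PSNPs and 17.6 ± 1.69 CPM with IR-813, an estimate of −0.01 ± 0.12.

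Of the 9 licensing and replication genes, 0 rose and 1 fell (11.1%), beside 20.9% higher and 20.1% lower of all tested genes. Their median log2 fold change was −0.03. Cdt1, the licensing factor that brings the MCM helicase to origins together with CDC6, stood at 19.3, 22.3 and 25.7 CPM with PSNPs and at 37.0, 37.7 and 33.5 CPM with IR-813. It fell by 0.69 ± 0.13 on the log2 scale (edgeR adjusted p = 0.00596), the largest change among the members. Its partner gene Cdc6 averaged 15.1 ± 2.52 CPM with PSNPs and 12.6 ± 1.29 CPM with IR-813 (SD, n = 3 each) and did not pass.

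The 6 MCM genes encode the subunits of the helicase itself, and none passed. Mcm2 averaged 89.0 ± 0.847 CPM with PSNPs and 89.4 ± 6.29 CPM with IR-813, Mcm3 55.3 ± 0.901 CPM with PSNPs and 52.7 ± 2.55 CPM with IR-813, and Mcm5 47.6 ± 0.200 CPM with PSNPs and 48.7 ± 3.40 CPM with IR-813 (SD, n = 3 each). Estimates for these 3 genes lay between −0.03 and 0.07 with standard errors between 0.0816 and 0.0879. Mcm4, Mcm6 and Mcm7 had estimates of −0.16, −0.17 and −0.16. Without PSNPs replicate 3, Mcm6 was at −0.18 (edgeR adjusted p = 0.0260, alternatives spanning 0.0260 to 0.329) and Mcm7 at −0.23 (edgeR adjusted p = 0.00789, alternatives spanning 0.00789 to 0.461). Pcna, the sliding clamp of the polymerases, averaged 135 ± 19.3 CPM with PSNPs and 118 ± 5.29 CPM with IR-813 and did not pass (0.20 ± 0.11). The 9 licensing and replication genes summed to 583 to 630 CPM per library with PSNPs and to 596 to 649 CPM with IR-813, ranges that overlapped.

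Of the genes that make DNA precursors, Rrm2 rose. It encodes the S-phase subunit of ribonucleotide reductase and stood at 127, 140.2 and 134 CPM with PSNPs and at 88.0, 89.7 and 99.2 CPM with IR-813. Every PSNPs library lay above every IR-813 library, with a log2 fold change of 0.53 ± 0.08 (edgeR adjusted p = 0.00314). The gene of the large subunit, Rrm1, was at 136 ± 10.6 CPM with PSNPs and 129 ± 3.94 CPM with IR-813, and the thymidine kinase gene Tk1 at 44.4 ± 4.78 CPM with PSNPs and 43.7 ± 5.37 CPM with IR-813 (SD, n = 3 each), and neither passed. The thymidylate synthase gene Tyms stood at 24.6, 24.0 and 13.8 CPM with PSNPs and at 18.6, 17.1 and 19.2 CPM with IR-813. PSNPs replicates 1 and 2 were above all IR-813 libraries for Tyms and replicate 3 was below them. Without PSNPs replicate 3 the estimate for Tyms was 0.41 (edgeR adjusted p = 0.00285, alternatives spanning 0.00285 to 0.887), and for Rrm1 it was 0.14 (edgeR adjusted p = 0.0354, alternatives spanning 0.0354 to 0.995).

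Several genes of entry into mitosis rose. Of 9 members in this group, 4 were higher (44.4%, beside the 20.9% of all tested genes) and 0 lower, with a median log2 fold change of 0.33. Their summed level was 315, 316 and 351 CPM in the PSNPs libraries and 262, 258 and 279 CPM in the IR-813 libraries, groups that did not overlap. This was not particular to G2/M. Sums also lay apart for G1 and nucleotide synthesis, with PSNPs above, and for the G1/S group, with PSNPs below. The spindle checkpoint group, where no gene passed, summed to 147.9 to 157.5 CPM with PSNPs and 134.6 to 140.8 CPM with IR-813. Ccnb2, a B-type cyclin, stood at 44.4, 42.4 and 53.7 CPM with PSNPs and at 28.8, 29.9 and 30.5 CPM with IR-813, a rise of 0.65 ± 0.11 on the log2 scale (edgeR adjusted p = 0.00448). The other B-type cyclin gene, Ccnb1, stood at 55.2, 56.0 and 54.8 CPM with PSNPs and at 43.5, 41.3 and 46.9 CPM with IR-813 (0.33 ± 0.09, edgeR adjusted p = 0.0205). Both B-type cyclin genes were higher in every PSNPs library than in any IR-813 library. Their kinase gene Cdk1 stood at 54.1, 53.3 and 72.5 CPM with PSNPs and at 43.1, 44.5 and 45.5 CPM with IR-813 (0.43 ± 0.14, edgeR adjusted p = 0.0393), with PSNPs replicate 3 well above the other PSNPs libraries. Plk1, a kinase that starts spindle assembly, stood at 42.1, 41.9 and 48.5 CPM with PSNPs and at 34.0, 31.7 and 35.8 CPM with IR-813 (0.38 ± 0.10, edgeR adjusted p = 0.0226). All 4 of these genes had groups that did not overlap, as did 30.0% of all tested genes with PSNPs above.

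Only Ccnb2 of these 4 kept its call under every alternative, and the others lay near the threshold. The edgeR adjusted p of Ccnb1 was 0.0588 and 0.0548 without PSNPs replicates 1 and 2 and 0.0853 and 0.113 without IR-813 replicates 1 and 2, alternatives spanning 0.0032 to 0.113. For Cdk1 it was 0.127, 0.120 and 0.0946 without IR-813 replicates 1, 2 and 3, alternatives spanning 0.00304 to 0.127, and for Plk1 it was 0.0808 and 0.111 without IR-813 replicates 1 and 2, alternatives spanning 0.00529 to 0.111. The estimates for these 3 genes stayed above 0 under all 14 alternatives. With the replicate number as a block the edgeR adjusted p was 0.0567 for Ccnb1 and 0.0506 for Cdk1, and with library size only it was 0.0567 for Ccnb1, 0.0731 for Cdk1 and 0.0520 for Plk1. For Cdk1 limma on the deposited values gave 0.0558. The other members of the group did not pass. The spindle kinase gene Aurka averaged 26.7 ± 4.53 CPM with PSNPs and 20.3 ± 2.14 CPM with IR-813, Aurkb, the kinase of the chromosomal passenger complex, 24.6 ± 1.46 CPM with PSNPs and 23.8 ± 2.50 CPM with IR-813, and the cyclin A gene Ccna2 35.8 ± 3.26 CPM with PSNPs and 34.0 ± 1.87 CPM with IR-813 (SD, n = 3 each). The phosphatase gene Cdc25c was at 6.66 ± 0.681 CPM with PSNPs and 5.74 ± 0.459 CPM with IR-813. Foxm1, the factor that drives many G2/M genes, was at 27.3 ± 3.17 CPM with PSNPs and 30.3 ± 1.55 CPM with IR-813, an estimate of −0.15 ± 0.11.

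**Figure D2:**
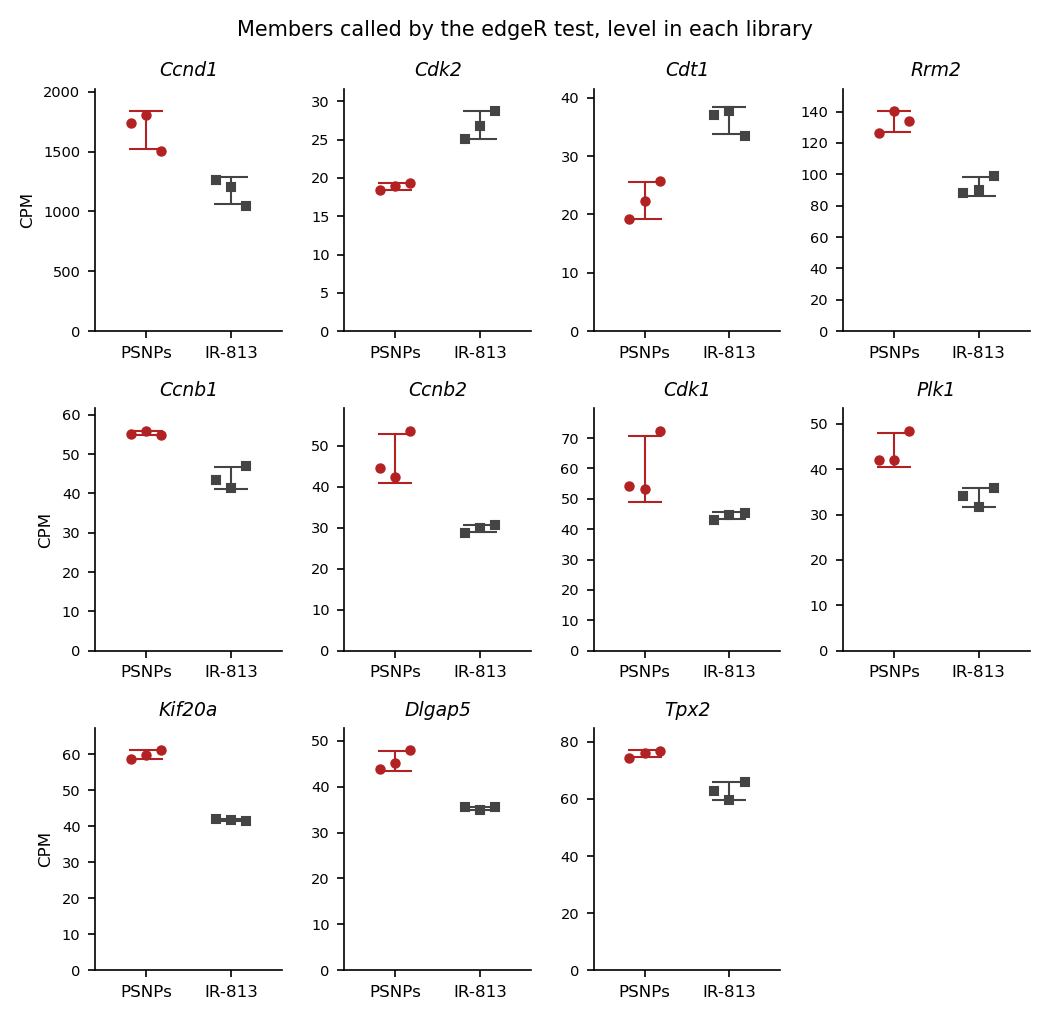
The level in each library (CPM, vertical axes from 0) is plotted for the 11 called members, PSNPs libraries as circles and IR-813 libraries as squares, with bars for the mean ± SD of 3. Cdk2 and Cdt1 lie lower with PSNPs and the other 9 genes higher. No gene plotted has overlapping groups, which held for 61.4% of all tested genes too.

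The promoters of these genes are shown because late and early cell cycle genes are known to carry different short motifs. The RefSeq promoter table (build GRCr8, 250 bases before to 50 bases after the start, a different build from the mRatBN7.2 of the counts) held 35 of the 47 members. Both strands were searched for the cell cycle homology region (CHR, TTTGAA), to which the MuvB complex binds, for the CCAAT box (CCAAT), bound by NF-Y, and for an E2F motif (TTTCCCGC, TTTGGCGC, TTTGCCGC or TTTCGCGC, which can overlap on opposite strands). Each sequence below reads 5′ to 3′ along the gene, and capitals mark these motifs on either strand. Ccnb2 and Cdk1 rose, Cdt1 fell, and Mcm5, which did not pass, stands for the MCM genes.
Ccnb2, chr8:79981609-79981908, minus strand: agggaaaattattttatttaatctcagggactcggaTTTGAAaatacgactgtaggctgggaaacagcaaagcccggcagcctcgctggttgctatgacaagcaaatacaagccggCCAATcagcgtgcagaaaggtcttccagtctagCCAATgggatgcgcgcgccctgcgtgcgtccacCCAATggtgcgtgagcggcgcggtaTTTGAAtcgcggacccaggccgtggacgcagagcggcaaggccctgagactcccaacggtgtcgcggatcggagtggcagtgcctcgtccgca
Cdk1, chr20:19265043-19265342, plus strand: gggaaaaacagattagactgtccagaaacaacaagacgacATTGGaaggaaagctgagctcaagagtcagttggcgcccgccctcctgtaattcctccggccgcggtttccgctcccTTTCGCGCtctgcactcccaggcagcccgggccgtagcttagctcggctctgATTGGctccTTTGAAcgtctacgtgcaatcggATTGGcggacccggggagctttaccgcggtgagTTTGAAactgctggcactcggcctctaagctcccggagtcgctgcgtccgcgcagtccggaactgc
Mcm5, chr19:13488563-13488862, plus strand: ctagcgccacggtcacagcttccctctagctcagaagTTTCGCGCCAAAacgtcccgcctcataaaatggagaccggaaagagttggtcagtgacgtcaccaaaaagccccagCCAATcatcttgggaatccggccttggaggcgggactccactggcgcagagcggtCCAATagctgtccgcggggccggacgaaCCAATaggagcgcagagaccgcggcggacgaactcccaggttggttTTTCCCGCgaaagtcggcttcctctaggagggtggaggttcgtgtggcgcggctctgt
Cdt1, chr19:67528999-67529298, plus strand: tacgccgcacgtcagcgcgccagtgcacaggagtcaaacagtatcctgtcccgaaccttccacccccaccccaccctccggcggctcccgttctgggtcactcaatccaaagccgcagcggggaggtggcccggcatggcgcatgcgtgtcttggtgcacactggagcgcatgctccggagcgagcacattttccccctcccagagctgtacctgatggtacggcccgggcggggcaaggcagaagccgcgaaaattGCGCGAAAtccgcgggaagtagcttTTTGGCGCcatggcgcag

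In the Ccnb2 promoter 3 CCAAT boxes, beginning 134, 101 and 68 bases before the start, lie between a CHR that begins 214 bases before it and another that begins 43 bases before it. In the Cdk1 promoter a CHR begins 16 bases before the start, and another CHR, CCAAT boxes and an E2F motif (133 bases before it) lie further out. Mcm5 held E2F motifs and CCAAT boxes but no CHR, and Cdt1 held 2 E2F motifs after its start and neither of the others. The CHR was in 12 of 18 promoters of the 3 G2/M and mitosis groups (66.7%) and in 1 of 17 of the other groups, that of Mcm2, beside 18.1% of all 27457 promoters in the table and 11.1% of those of tested genes. The E2F motif was in 6 of 7 licensing and replication promoters (85.7%), beside 2.25% of all promoters and 3.88% of those of tested genes. A CCAAT box was in 24 of 35 member promoters (68.6%), beside 37.7% of all. Of the 6 called higher members with an entry, 3 held TTTGAA (Ccnb2, Cdk1 and Plk1) and Ccnb1, Kif20a and Dlgap5 did not. Among the 27 members that did not pass, 10 held it. Members with and without this motif were thus found among both. A match is a description of letters in this window and not a bound site, and no spelling of the CHR other than TTTGAA was searched.

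Of the spindle checkpoint and anaphase genes, none of 4 passed. Cdc20, which activates the anaphase-promoting complex, stood at 61.2, 57.8 and 81.0 CPM with PSNPs and at 50.6, 52.5 and 51.0 CPM with IR-813 (0.38 ± 0.14, edgeR adjusted p = 0.0656). Its groups did not overlap, and its edgeR adjusted p was 0.0101 without PSNPs replicate 3 and 0.0437 without PSNPs replicate 2, alternatives spanning 0.0101 to 0.174. The checkpoint kinase genes Bub1 and Bub1b averaged 30.9 ± 4.42 and 33.8 ± 2.70 CPM with PSNPs, against 35.1 ± 0.543 and 33.3 ± 0.504 CPM with IR-813, and the checkpoint gene Mad2l1 averaged 20.8 ± 1.86 CPM with PSNPs and 18.3 ± 2.15 CPM with IR-813 (SD, n = 3 each). The estimates for these 3 genes lay between −0.18 and 0.18.

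Among 9 genes of spindle motors and mitotic chromosomes, 3 rose (33.3%, beside the 20.9% of all tested genes) and 0 fell. The kinesin gene Kif20a, needed for cytokinesis, stood at 58.7, 59.7 and 61.2 CPM with PSNPs and at 42.1, 41.9 and 41.4 CPM with IR-813. It had the smallest p of all members, with a log2 fold change of 0.52 ± 0.08 (edgeR adjusted p = 0.00247). Dlgap5, a spindle protein gene, stood at 43.8, 45.2 and 48.0 CPM with PSNPs and at 35.5, 35.0 and 35.6 CPM with IR-813 (0.37 ± 0.08, edgeR adjusted p = 0.0127). Tpx2, the activator of Aurora A, stood at 74.5, 76.3 and 76.9 CPM with PSNPs and at 62.6, 59.7 and 66.1 CPM with IR-813 (0.27 ± 0.08, edgeR adjusted p = 0.0310). The replicates of these 3 genes lay close together, in PSNPs replicate 3 too. For Dlgap5 the edgeR adjusted p was 0.0581 and 0.0737 without IR-813 replicates 1 and 2, alternatives spanning 0.00144 to 0.0737. For Tpx2 it was 0.0722 and 0.0747 without PSNPs replicates 1 and 2, 0.112, 0.156 and 0.0507 without IR-813 replicates 1, 2 and 3, 0.0755 with the replicate number as a block and 0.0972 with library size only, alternatives spanning 0.0055 to 0.156.

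The best known proliferation markers did not pass. Mki67, which encodes the marker Ki-67, stood at 138, 157 and 70.1 CPM with PSNPs and at 145, 152 and 164 CPM with IR-813 (−0.33 ± 0.27). Top2a, the DNA topoisomerase of mitotic chromosomes, stood at 126, 133 and 79.8 CPM with PSNPs and at 115, 116 and 131 CPM with IR-813 (−0.10 ± 0.19). For Top2a PSNPs replicate 3 alone lay below the IR-813 libraries, and for Mki67 it lay far below all other libraries, with PSNPs replicate 1 just under the IR-813 ones. The kinetochore gene Cenpf stood at 80.5, 105 and 55.5 CPM with PSNPs and at 70.2, 76.0 and 78.4 CPM with IR-813, with replicate 3 again the lowest and replicates 1 and 2 the highest. Without PSNPs replicate 3 its estimate was 0.31 (edgeR adjusted p = 0.0412, alternatives spanning 0.0115 to 0.919). The survivin gene Birc5 showed the opposite order, with 13.9, 14.3 and 23.2 CPM with PSNPs against 12.35, 11.2 and 13.7 CPM with IR-813 (0.47 ± 0.22, edgeR adjusted p = 0.130). The kinesin genes Kif11, which separates spindle poles, and Kif23, of the midzone, averaged 46.8 ± 6.61 and 34.8 ± 2.99 CPM with PSNPs and 47.1 ± 1.92 and 31.7 ± 0.799 CPM with IR-813 (SD, n = 3 each). Kif23 had an estimate of 0.13, and without PSNPs replicate 3 it was 0.20 (edgeR adjusted p = 0.0224, alternatives spanning 0.0214 to 0.656).

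The members that PSNPs replicate 3 held low or high differed in the length implied by the deposited values. A length for each gene was taken from the ratio of its count to its deposited value, which gave 0.729 kb for Birc5 and 10.2 and 10.4 kb for Mki67 and Cenpf. Across the 47 members the level in PSNPs replicate 3 relative to the mean of PSNPs replicates 1 and 2 had a Spearman correlation of −0.56 with this length, and across 11497 tested genes it was −0.57 (members and genes share their libraries and are not independent). For PSNPs replicate 1 over replicate 2 it was −0.12 over the members. The ratio was 0.474 for Mki67, 0.597 for Cenpf and 0.616 for Top2a (5.03 kb), and 1.65 for Birc5, 1.35 for Cdk1 (1.05 kb) and 1.37 for Cdk4 (1.24 kb). Ccnd2, Cdk6 and Tyms stood off this relation, with ratios of 0.396, 0.383 and 0.569 at implied lengths of 1.29 to 1.45 kb. Whether the implied lengths are those of the full transcripts was not tested. Over all genes the median ratio was 1.23 for those under 1.5 kb and 0.712 for those of 4 kb or more. Log2 fold changes between the treatments followed length as well, with a Spearman correlation of −0.31 over the members and −0.30 over all genes. With each library's length trend as an offset in the fit, 14 members were higher and 3 lower (36.2%, beside 46.7% of all genes). The 11 members called in the reported fit all kept their calls there, but estimates moved. The median of the G2/M group was lower with the offset, as given in the closing section. Over all 14 alternatives the estimate spanned 0.23 to 0.52 for Cdk1, against 0.43 in the reported fit. For Ccnb2 it spanned 0.52 to 0.73, against 0.65, and for Ccnb1 0.26 to 0.46, against 0.33. Cenpf was at 0.50 with the offset (edgeR adjusted p = 0.0115, alternatives spanning 0.0115 to 0.919). Kif11 was at 0.24 with the offset (edgeR adjusted p = 0.0316, alternatives spanning 0.0316 to 0.998), against −0.01 without it. The offset also put Bub1b at 0.26 (edgeR adjusted p = 0.0374, alternatives spanning 0.0374 to 0.978) and Cdkn1b at −0.24 (edgeR adjusted p = 0.0279, alternatives spanning 0.0279 to 0.325). No value of RNA quality was analysed here, and its part was not tested.

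**Figure D3:**
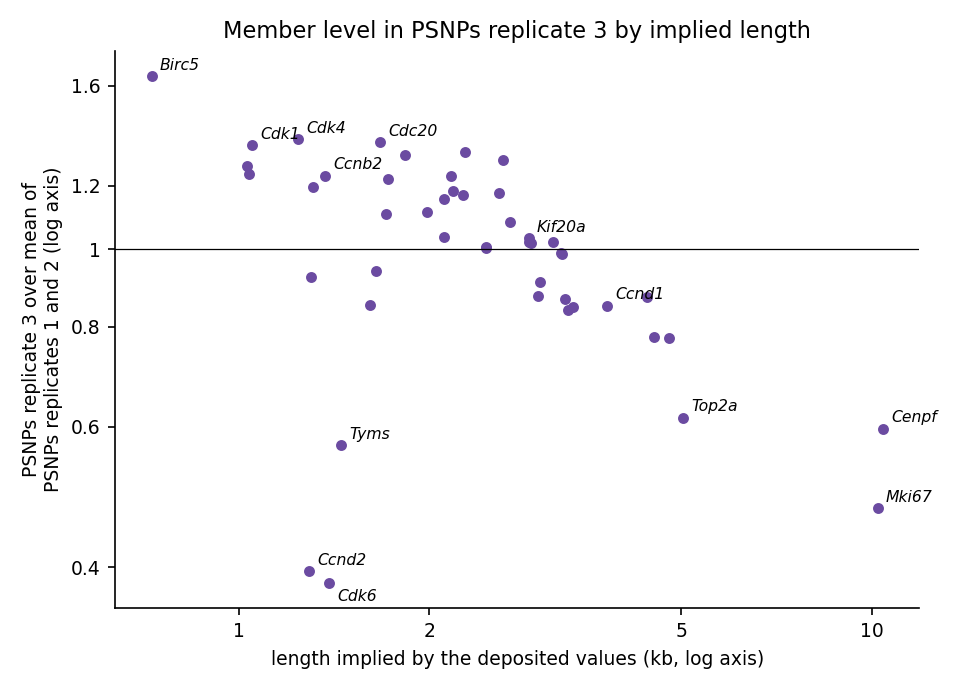
Each point is 1 of the 47 members, by the length implied by the deposited values (kb, log axis) and by its level in PSNPs replicate 3 over the mean of PSNPs replicates 1 and 2 (log axis). Long members such as Mki67 (0.474) lie low and short ones such as Birc5 (1.65) lie high, with Ccnd2, Cdk6 and Tyms apart.

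The inhibitors among the members did not pass. Cdkn1b, which encodes the CDK inhibitor p27, averaged 91.4 ± 3.32 CPM with PSNPs and 102 ± 3.77 CPM with IR-813, groups that did not overlap (−0.15 ± 0.08, edgeR adjusted p = 0.145). Cdkn2c, which encodes the CDK4 and CDK6 inhibitor p18, averaged 25.0 ± 2.74 CPM with PSNPs and 22.8 ± 1.68 CPM with IR-813 (SD, n = 3 each). Gmnn, which encodes geminin, the inhibitor of CDT1, stood at 13.7, 17.6 and 19.5 CPM with PSNPs and at 12.7, 13.5 and 13.1 CPM with IR-813 (0.37 ± 0.15, edgeR adjusted p = 0.0869). Without PSNPs replicate 1 its edgeR adjusted p was 0.0292, alternatives spanning 0.0292 to 0.286. All 3 PSNPs values of Gmnn lay above the IR-813 ones, the nearest by a small margin.

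**Figure D4:**
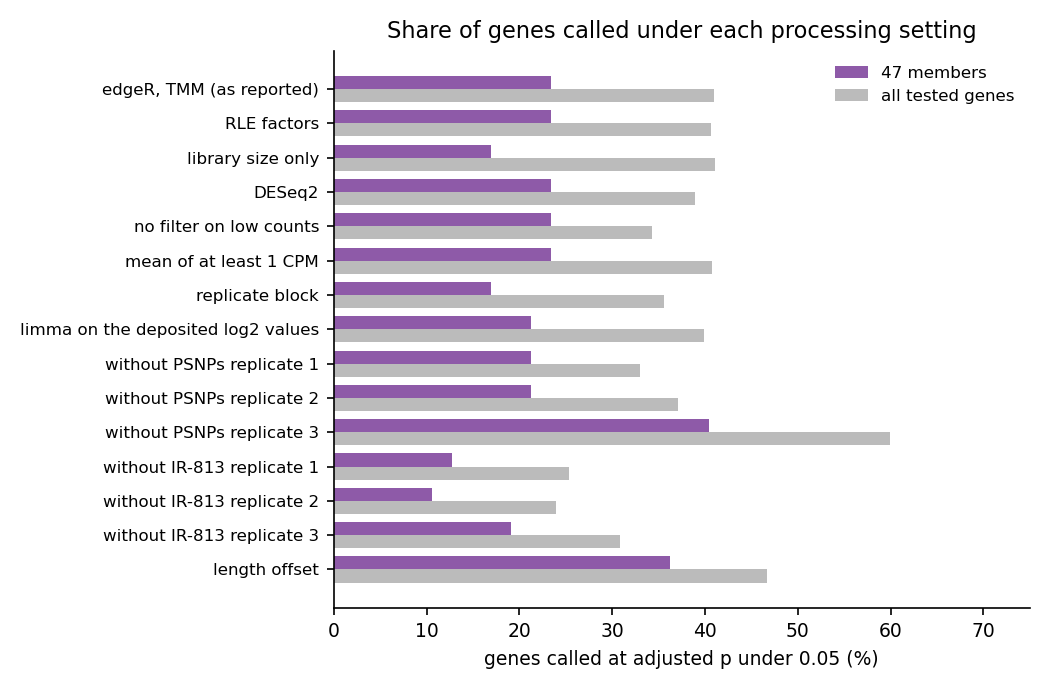
The share of genes called (percent, horizontal axis from 0) is plotted for the 47 members and for all tested genes under the reported fit and 14 alternatives. The share of the members ranges from 10.6% to 40.4% and lies below that of all genes in every pair of bars.

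The rest of the pathway was read from 9 further lists of 175 genes, of which 152 were in the count table and were tested, and the others were not analysed here. Of the 152, 21 were higher (13.8%) and 12 lower (7.89%), their median log2 fold change being 0.06. These shares too lay below those of all tested genes (20.9% higher and 20.1% lower), beside which each list below is to be read. With library size alone there were 11 higher and 18 lower. Of 37 pre-replication and fork genes 2 were higher and 3 lower, and Orc2, a subunit of the origin recognition complex, fell by 0.74 ± 0.14 on the log2 scale. Of 13 E2F, RB and DREAM genes 0 were higher and 1 was lower, Lin54, the DNA-binding subunit of MuvB, at −0.97 ± 0.15. Of 24 genes of the anaphase-promoting complex and cohesion 8 were higher (33.3%) and 0 lower. The smallest p among them belonged to the complex subunits Anapc2 (0.75 ± 0.09) and Anapc5 (0.42 ± 0.08). The largest estimate in that list was 0.89 ± 0.20, for the subunit gene Anapc13, named after its values were seen. Of 24 kinetochore genes 3 were higher and 1 was lower, Zwint, at −0.85 ± 0.11, while Cenpm and Mad1l1 were at 0.75 and 0.46. Without IR-813 replicate 2 the edgeR adjusted p was 0.0596 for Cenpm and 0.108 for Mad1l1, and for Mad1l1 leaving out IR-813 replicate 1 gave 0.107 and leaving out PSNPs replicate 1 gave 0.0516, with alternatives spanning 0.00254 to 0.0596 for Cenpm and 0.0135 to 0.108 for Mad1l1.

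Of 20 spindle and cytokinesis genes 2 were higher and 0 lower, Ckap2 (0.78 ± 0.08) and the kinesin gene Kif2c (0.47 ± 0.10, with an edgeR adjusted p of 0.0579 without IR-813 replicate 2, alternatives spanning 0.00195 to 0.0579). Of 4 condensin genes only Smc4 passed, at −0.25 ± 0.08, and it was at −0.02 with the length offset. It also missed the threshold with any of PSNPs replicate 1 and IR-813 replicates 1, 2 and 3 left out, with edgeR adjusted p of 0.108, 0.130, 0.134 and 0.113, alternatives spanning 0.00959 to 0.877. Of 12 nucleotide supply genes 2 were higher, Impdh2 and Nme1 (0.30 and 0.53), and 2 lower, Shmt1 and Ctps1 (−0.61 and −0.51). The 2 that fell passed under all 14 alternatives. Impdh2 missed the threshold under 7 of them, 4 of which left out PSNPs replicate 1 or IR-813 replicates 1, 2 or 3 (edgeR adjusted p of 0.0576, 0.0850, 0.125 and 0.108), alternatives spanning 0.00561 to 0.125. Nme1 missed it under 6, 3 of which left out IR-813 replicates 1, 2 or 3 (0.101, 0.119 and 0.0890), alternatives spanning 0.00159 to 0.119. The same held for Cdc7, a kinase gene of the fork list at −0.34, which missed the threshold without any single library other than PSNPs replicate 3 (from 0.0589 to 0.122), and its alternatives spanned 0.0119 to 0.122. Rpa3, of the single-strand binding complex, had an estimate of 0.54, and its edgeR adjusted p was 0.116 and 0.104 without IR-813 replicates 1 and 2 and 0.0606 without PSNPs replicate 1, alternatives spanning 0.0158 to 0.157. Gins4, of the helicase complex, was at 0.42, with 0.0774 without PSNPs replicate 2 and 0.105, 0.157 and 0.0891 without IR-813 replicates 1, 2 and 3, alternatives spanning 0.024 to 0.157. With the replicate number as a block the edgeR adjusted p was 0.0953 for Smc4, 0.0797 for Impdh2, 0.0776 for Cdc7 and 0.0678 for Gins4.

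The largest changes among these 152 genes were in the genes of the CDK inhibitors outside the members. Of 5 such genes 3 were higher (60%) and 1 was lower (20%), beside 20.9% and 20.1% of all tested genes. Cdkn2a, whose locus encodes the CDK4 and CDK6 inhibitor p16 and the p53-stabilizing protein ARF, stood at 27.6, 27.1 and 37.3 CPM with PSNPs and at 4.92, 5.45 and 3.89 CPM with IR-813. It rose 6.45-fold (log2 2.69 ± 0.19, edgeR adjusted p = 0.00016), and the counts per gene cannot tell its transcripts apart. Cdkn2b, its neighbour gene that encodes p15, stood at 214, 229 and 221 CPM with PSNPs and at 135, 125 and 97.4 CPM with IR-813 (0.89 ± 0.13, edgeR adjusted p = 0.00216), and was named after its values were seen. Cdkn1a, the p53 target that encodes p21, stood at 392, 400.5 and 467 CPM with PSNPs and at 246, 225 and 190.1 CPM with IR-813 (0.93 ± 0.12, edgeR adjusted p = 0.0015). These 3 inhibitor genes had groups that lay well apart. Cdkn1c, which encodes p57, moved the other way, with 8.23, 9.23 and 14.7 CPM with PSNPs against 78.0, 82.8 and 94.6 CPM with IR-813, a fall of 2.99 ± 0.23 on the log2 scale (edgeR adjusted p = 0.000195). Cdkn3, which encodes a CDK phosphatase, averaged 7.16 ± 0.763 CPM with PSNPs and 5.53 ± 0.136 CPM with IR-813 (SD, n = 3 each) and did not pass.

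Of 13 CDK regulators 1 was higher (7.69%) and 3 were lower (23.1%), beside 20.9% and 20.1% of all tested genes. Ccng1, the p53 target that encodes cyclin G1, stood at 978, 1009 and 943 CPM with PSNPs and at 429, 409 and 413 CPM with IR-813 (1.23 ± 0.08, edgeR adjusted p = 0.00012). Skp2, the F-box protein gene whose product targets p27 and other inhibitors for degradation, averaged 11.0 ± 0.303 CPM with PSNPs and 18.2 ± 1.77 CPM with IR-813 (SD, n = 3 each), a fall of 0.72 ± 0.12 on the log2 scale. Cdc25a, a phosphatase that activates CDK2, fell by 0.48 ± 0.11 on the log2 scale (edgeR adjusted p = 0.0108), and its edgeR adjusted p was 0.0558 without IR-813 replicate 2, alternatives spanning 0.00231 to 0.0558. Cdkn2a, Cdkn1a, Cdkn1c, Ccng1 and Skp2 passed under all 14 alternatives.

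**Figure D5:**
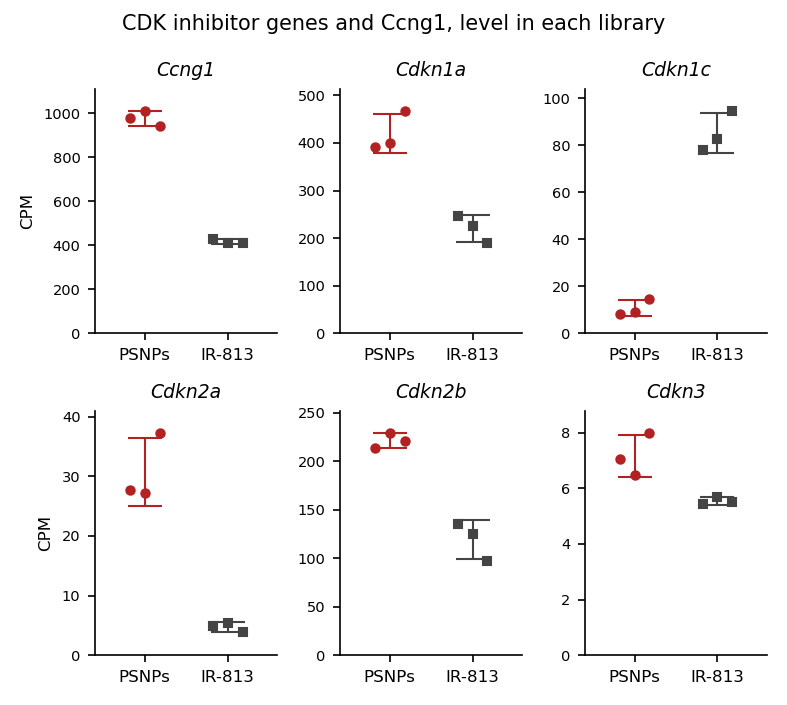
The level in each library (CPM, vertical axes from 0) is plotted for Ccng1 and 5 CDK inhibitor genes, PSNPs libraries as circles and IR-813 libraries as squares, with bars for the mean ± SD of 3. Cdkn1c lies lower with PSNPs, and the other genes plotted lie higher, Cdkn3 by an amount that did not pass the test.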

How the data were processed

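Polyadenylated RNA was sequenced in 6 libraries. Whole-number counts by gene symbol were deposited by the authors in a single table. Per library the authors also deposited log2 values, and per the labels the scale of those is unstated. The submitters' processing notes name bcl2fastq and mRatBN7.2, and the aligner and counting program are not given in sources used here, nor is strandedness, so reads of overlapping genes or near-identical copies could be split between them. Groups and replicate numbers came from the sample titles, and table columns were joined through the per-library files of the same column name.

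Counts were filtered with filterByExpr (11679 genes), scaled with TMM and compared by edgeR 4.0.16 (R 4.3.3; quasi-likelihood, treatment as the only term, Benjamini-Hochberg adjusted p under 0.05, no minimum fold). Standard errors are the log2 fold change divided by the square root of F. The length per gene was the scaled count (CPM) divided by the unlogged deposited value less 1, in kb, as the median over libraries, where the deposited value was at least 0.5. The fit was tested on simulated data.

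The members, the 9 further lists and the markers were chosen with earlier results of these data known. Of the further lists the 2 genes of smallest p in each direction were named. Alternatives were RLE factors, library size only, DESeq2 1.42.0, no count filter, a mean of at least 1 CPM, the replicate number as a block, limma 3.58.1 on the deposited values, each library left out and, chosen after seeing the data, a length offset. An exact permutation of 3 against 3 libraries cannot give a 2-sided p below 0.1 and was not run. Counts carry no molecular identifiers.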

Additional observations from a re-analysis of the deposited data

How the results depend on the processing

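Of the 11 called members, Rrm2, Ccnb2 and Kif20a (higher) and Cdk2 and Cdt1 (lower) passed under all 14 alternatives, and 24 of the 47 passed under none of them and not in the reported fit either. Members called higher numbered 9 in the reported fit, 5 with library size only (with 3 lower), 14 with the length offset and between 3 and 15 with 1 library left out, and members called lower numbered 2, and between 2 and 4 with 1 library left out. Genes of the further lists called higher numbered 21, 11 with library size only and between 8 and 45 with 1 library left out, and those called lower numbered 12, and between 7 and 26. The lowest counts of higher calls came without IR-813 replicate 2 and the highest without PSNPs replicate 3, where 23.9% and 59.9% of all genes were called, beside 41.0% in the reported fit, 41.1% with library size only and 46.7% with the length offset.

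With library size only the median log2 fold change was 0.031 over all members, 0.063 for the G1 cyclins and kinases, −0.11 for origin licensing and replication, 0.26 for the G2/M group and 0.029 for the checkpoint group. With the length offset it was 0.059 for G1, 0.23 for G2/M, 0.26 for spindle motors and chromosomes and −0.014 for the inhibitors, and Kif11 turned to 0.24. With 1 library left out it ranged from 0.065 to 0.25 for G1, from 0.066 to 0.28 for nucleotide synthesis and from 0.25 to 0.38 for G2/M. The cause was not tested.

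Whether replicate numbers pair the libraries cannot be told from 3 libraries per group. The deviations of same-numbered libraries from their group means correlated at −0.006, 0.015 and 0.121. Those of differently numbered libraries correlated between −0.174 and 0.184. With the replicate block there were 6 members higher and 2 lower (17.0%, beside 35.6% of all genes), Ccnb1, Cdk1 and Tpx2 being lost. Counts were lowest for Cdc25c, with at least 113 per library. Its standard error of 0.14 was still below those of Ccnd2 (0.32) and Mki67 (0.27), which had more counts. Shares of member promoters with a motif were also read over the 250 bases before the start. There 17.1% held E2F and 25.7% CHR, in place of 25.7% and 37.1%. In that window 44.4% of promoters of the 3 G2/M and mitosis groups held the CHR, in place of 66.7%, beside 9.88% of those of tested genes. The E2F motif was in 57.1% of licensing and replication promoters, in place of 85.7%, beside 3.11% of those of tested genes.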
